A study of Mus musculus with 22 samples.

Results

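The expression of 10 genes that keep endogenous retroviruses silent in mouse embryonic stem cells (ESCs) was followed in ESCs exposed to compounds that act on chromatin. The members were chosen by name, as H3K9 methyltransferases and the co-repressors that work with them: Trim28, Setdb1, Atf7ip, Suv39h1, Suv39h2, Ehmt1, Ehmt2, Mphosph8, Chaf1a and Chaf1b. All 10 were among the 18487 genes of the expression table, and all 10 passed the filter on low values that left 17275 genes for testing. The rule uses no measured value, although the list was proposed with earlier results of these data known.

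The libraries came from the E14 mouse ESC line, grown in medium with serum and LIF according to the study's methods, and were made from poly(A)-selected RNA. The 11 groups had 2 libraries each. The 10 treated groups were Bromosporine (which blocks bromodomains broadly), Chaetocin (a fungal product used against SUV39H1), CPTH2 and Garcinol (used against histone acetyltransferases), DZNep (which blocks S-adenosylhomocysteine hydrolase and with it many methyltransferases), IOX1 (a broad inhibitor of 2-oxoglutarate oxygenases, among them histone demethylases), MS023 (which blocks type I arginine methyltransferases), UNC0379 (which blocks the H4K20 methyltransferase SETD8), Valproate (which blocks histone deacetylases) and OICR, a label that was not spelled out further. The remaining group, labelled NC, served as the reference for each compound. All groups shared the cell line, and the labels gave no dose, exposure time, vehicle or culture identity. The study's text does not describe these compounds, so p-values measure only the spread between libraries, which may be technical.

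Silencing of retroviruses in ESCs begins with KRAB zinc finger proteins, which bind retroviral sequence and bring in the co-repressor TRIM28, also called KAP1. TRIM28 recruits SETDB1, which places trimethyl groups on lysine 9 of histone H3 (H3K9), and ATF7IP keeps SETDB1 stable and in the nucleus. SUV39H1 and SUV39H2 maintain H3K9 trimethylation in pericentric heterochromatin and at some retroviruses, EHMT1 (GLP) and EHMT2 (G9a) act as a dimer that places dimethyl groups on the same lysine, MPHOSPH8 is the chromodomain subunit of the HUSH complex, and CHAF1A and CHAF1B form the larger subunits of the histone chaperone CAF-1.

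The values were normalized read counts that had been quantile-normalized, so that the median gene stood at 409 and the highest at 221616 in each of the 22 libraries. Library totals of 38403767 to 38419709 follow from that step and are not sequencing depths, which are not known per library. Of the 10 embryonic stem cell markers, none was at 0 in both libraries of any group, and their summed value ran from 161181 to 277447. The summed value of 8 fibroblast markers ran from 48 to 1959 and that of 10 markers of differentiated lineages from 1053 to 2154. In bulk RNA, fewer cells of a type and less RNA per cell cannot be told apart.

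Of the 10 genes, 4 passed the test given next with at least 1 compound, against 31.5% of all tested genes. Of 100 pairs of gene and compound, 4 passed the test against NC (limma on log2(value + 1), adjusted p under 0.05 by the Benjamini-Hochberg method over all tested genes), and 12 had an unadjusted p under 0.05, a level that 0.944% (CPTH2) to 35.4% (DZNep) of all tested genes reached. Setdb1 rose with DZNep, Suv39h1 rose with Bromosporine, Ehmt2 fell with Valproate and Chaf1b fell with DZNep. None of the 4 exceeded a 2-fold change. Among all tested genes, the share that passed ran from 0% (UNC0379) to 23.6% (DZNep). This fit has no term for the replicate number, and more pairs passed with one, as given at the end. Over all 100 pairs, 84 lay within 0.5 of NC on the log2 scale and 3 lay beyond 1, Atf7ip with IOX1 (-1.55) and Mphosph8 with Chaetocin (1.30) and IOX1 (1.27), none of which passed. For the other 8 genes, 76 of 80 pairs lay within 0.5 and 0 beyond 1.

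The promoters of the 4 genes that passed are shown because the results turn on these genes. They were read from the RefSeq promoter table (GRCm38.p6), which held all 10 members, and run 5′ to 3′ on the gene's strand from 250 bases before to 50 bases after the start. Capitals mark 5 motifs, searched on both strands: the GC box GGGCGG, the CCAAT box CCAAT, the TATA box TATAAA, the E-box CACGTG and the ETS motif CCGGAAG. The windows are chr3:95357153-95357452 on the minus strand for Setdb1, chrX:8074711-8075010 on the minus strand for Suv39h1 (the first of 2 starts listed), chr17:34898224-34898523 on the plus strand for Ehmt2 (the first of 2 starts listed) and chr16:93883651-93883950 on the plus strand for Chaf1b.
Setdb1: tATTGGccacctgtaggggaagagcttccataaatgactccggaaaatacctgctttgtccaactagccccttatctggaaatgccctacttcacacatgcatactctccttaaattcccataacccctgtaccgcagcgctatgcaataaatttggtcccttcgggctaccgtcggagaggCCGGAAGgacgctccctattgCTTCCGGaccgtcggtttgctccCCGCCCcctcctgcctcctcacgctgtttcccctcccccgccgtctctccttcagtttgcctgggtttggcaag
Suv39h1: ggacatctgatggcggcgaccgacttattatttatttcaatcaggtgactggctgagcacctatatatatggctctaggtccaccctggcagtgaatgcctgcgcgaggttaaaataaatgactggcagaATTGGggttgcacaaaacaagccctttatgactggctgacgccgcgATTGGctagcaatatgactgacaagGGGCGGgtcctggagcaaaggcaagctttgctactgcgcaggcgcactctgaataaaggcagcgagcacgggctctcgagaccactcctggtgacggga
Ehmt2: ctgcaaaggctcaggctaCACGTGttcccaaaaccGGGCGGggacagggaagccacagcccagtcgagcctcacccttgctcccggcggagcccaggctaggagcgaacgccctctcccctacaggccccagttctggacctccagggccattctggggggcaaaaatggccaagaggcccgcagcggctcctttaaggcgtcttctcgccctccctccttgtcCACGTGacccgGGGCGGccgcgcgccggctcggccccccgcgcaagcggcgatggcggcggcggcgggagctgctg
Chaf1b: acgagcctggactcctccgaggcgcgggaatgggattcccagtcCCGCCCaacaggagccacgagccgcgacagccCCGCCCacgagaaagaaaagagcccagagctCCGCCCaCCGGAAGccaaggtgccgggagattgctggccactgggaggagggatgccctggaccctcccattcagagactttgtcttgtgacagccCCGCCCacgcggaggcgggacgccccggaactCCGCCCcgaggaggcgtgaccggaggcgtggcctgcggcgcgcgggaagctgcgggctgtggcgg

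All 10 members held a GC box in this window, as did 35.9% of the 27025 promoters of the table, and 0 of 10 held the TATA box, which stood in 14.2% of all promoters. The CCAAT box was found in 5 members (Setdb1, Atf7ip, Suv39h1, Mphosph8 and Chaf1a) and in 37.9% of promoters. The ETS motif stood in Setdb1, where it occurred 2 times in opposite orientation, and in Chaf1b, against 9.12% of promoters, and the E-box in Ehmt2 and Chaf1a, against 7.24%. Chaf1b carried 5 GC boxes, the highest number among the 10. CpG dinucleotides numbered 15 in the Setdb1 and Suv39h1 windows, 28 in Ehmt2 and 30 in Chaf1b, with a median of 7 over all promoters. These matches describe the letters of the windows only.

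**Figure D1:**
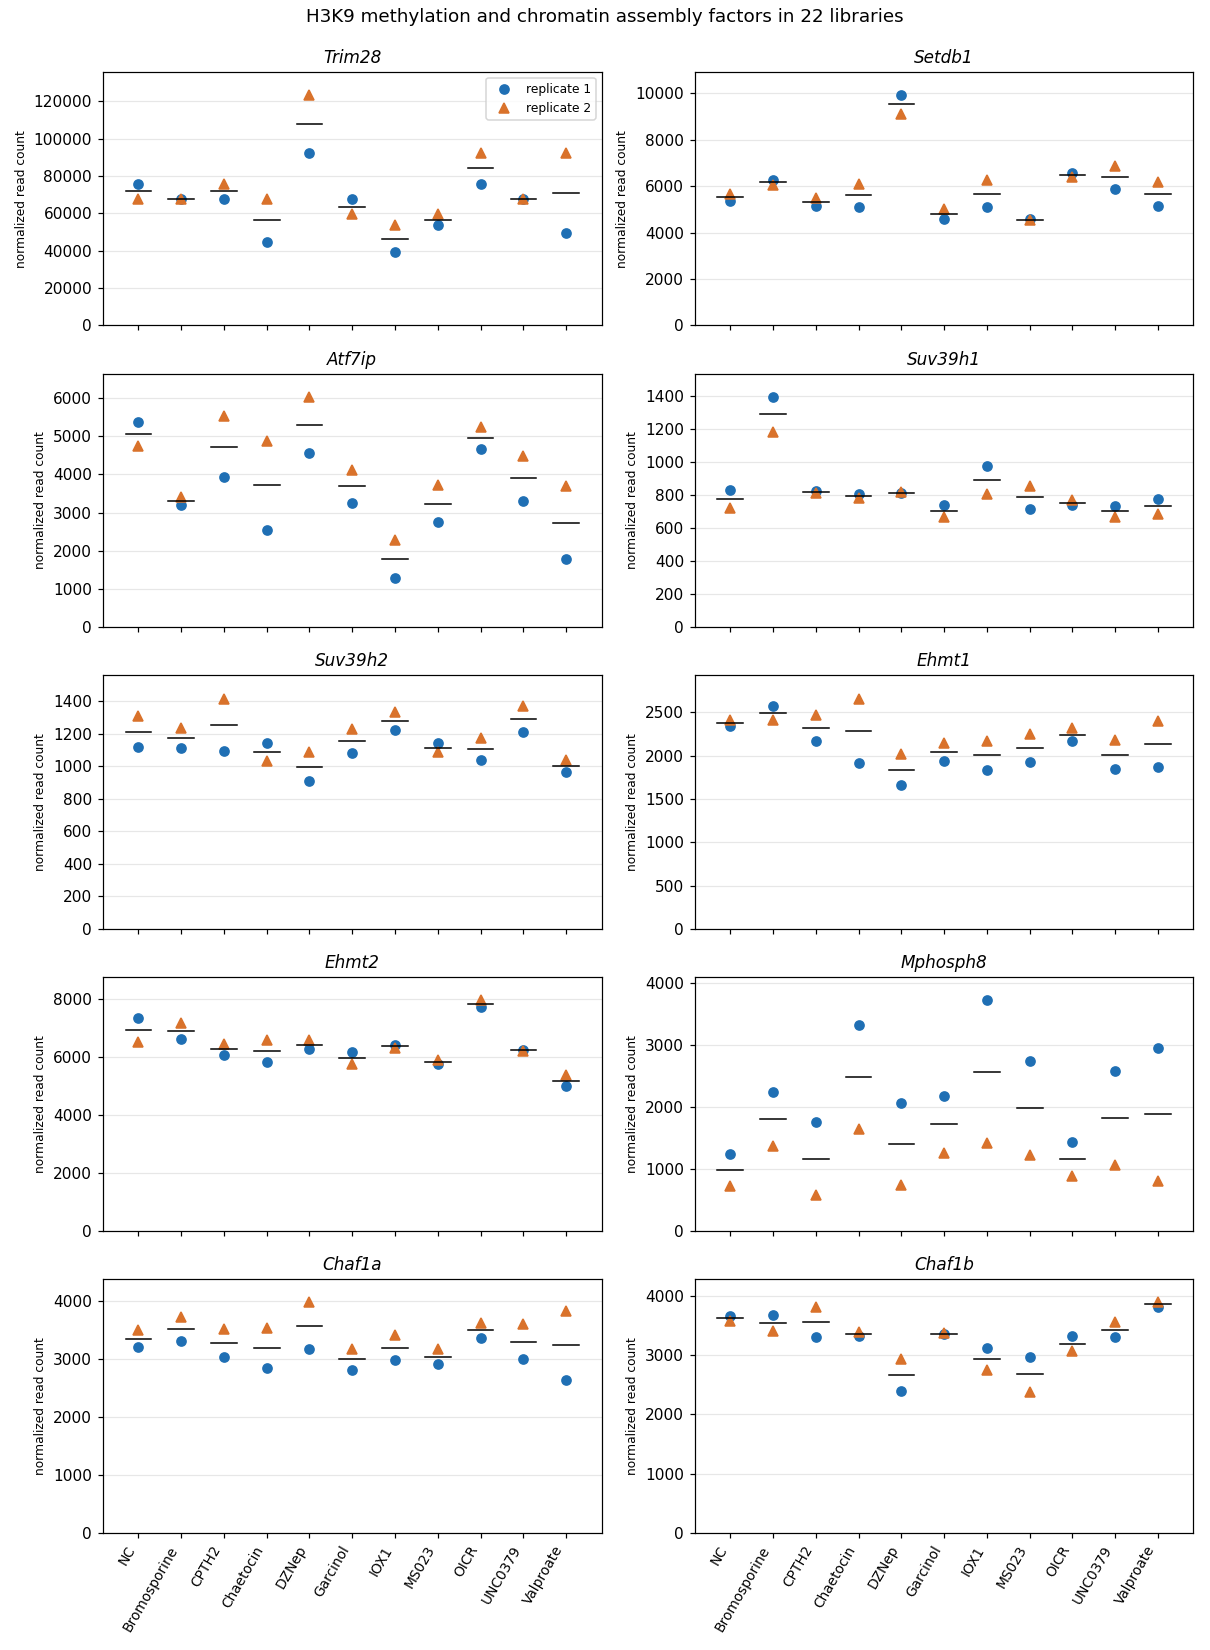
Normalized read count of each of the 10 genes (vertical axes, linear and starting at 0) in the 22 libraries, by group, with replicate 1 as circles, replicate 2 as triangles and the group mean as a bar. Setdb1 in DZNep (9922 and 9104) and Suv39h1 in Bromosporine (1395 and 1182) stand above all other libraries, and Mphosph8 is lower in replicate 2 than in replicate 1 in all 11 groups.

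Trim28 (chr7:12999114-13031035, plus strand) encodes the co-repressor at the centre of the pathway, and it was the most abundant of the 10. Per kilobase of the longest annotated transcript, its NC level was 22116 ± 1826 (SD, n = 2), 12.8 times that of Ehmt2, the next in order (1722 ± 141). The levels per kilobase then descended through Chaf1b (1282), Setdb1 (974), Atf7ip (627), Chaf1a (436), Ehmt1 (399), Mphosph8 (335) and Suv39h2 (280) to Suv39h1 (249). This order rests on the transcript chosen, and the shortest coding transcript, which for several genes is a fragment, would put Atf7ip above Trim28.

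Counts of Trim28 were 75957 and 67576 in NC, 92251 and 123367 in DZNep, and 39193 and 53841 in IOX1. The DZNep libraries lay above both NC libraries and the IOX1 libraries below both. Neither difference passed the test: the log2 change was 0.57 with DZNep (95% interval -0.00061 to 1.15, adjusted p = 0.142 in limma) and -0.64 with IOX1 (-1.22 to -0.07, adjusted p = 0.342). In descending order of group means, DZNep (107809) was followed by OICR (84104), NC and CPTH2 (both 71767), Valproate (70782), Bromosporine and UNC0379 (both 67576), Garcinol (63491), MS023 (56623), Chaetocin (56185) and IOX1 (46517), and in each of the 10 neighbouring pairs the libraries overlapped. Quantile normalization limits this gene: at ranks 19 to 109 from the top only 9 distinct values occurred in 22 libraries, 67576 occurred 8 times, and each distinct value was 1.09 to 1.34 times the one below. The SD of 0 in Bromosporine and in UNC0379 comes from this ladder of shared values.

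Setdb1 (chr3:95323525-95357202, minus strand) encodes the methyltransferase that TRIM28 recruits. Its counts were 5348 and 5667 in NC and 9922 and 9104 in DZNep. The DZNep libraries were the highest of all 22, with a gap to the next library, UNC0379 replicate 2 at 6868. The rise was 1.73-fold (log2 change 0.79, SE 0.13, 95% interval 0.51 to 1.06, adjusted p = 0.000692 in limma). Within replicate number 1 the log2 change was 0.89 and within number 2 it was 0.68. The other 9 groups ran from 4533 and 4576 in MS023 to 6551 and 6385 in OICR, with none past the test. DZNep moved many genes, 23.6% of all tested by the same test, so a pass with this compound is common. Leaving out either DZNep or NC library kept the pass. A fit of the DZNep and NC libraries alone, with few residual degrees of freedom, gave an adjusted p of 0.0835.

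Exons of Setdb1 overlap on the opposite strand with Cers2, and 8.32% of the 31-base stretches of its longest transcript occur in transcripts of other genes. Whether counting used strand is not given in the sources used here. Cers2 stood at 2091 and 1738 in NC and at 2423 and 1473 in DZNep, so its libraries overlapped between the groups. In the DZNep libraries the stem cell marker sum was also the highest of any group (264327 and 277447, against 185535 and 196976 in NC). The fibroblast marker sum was 1732 and 1959 against 550 and 1387. In each of these groups 2 of its 8 genes were at 0 in both libraries. That sum rests largely on Col3a1 (509 and 716 in DZNep, 4 and 743 in NC) and Postn (677 and 819, 474 and 559). Neither of these 2 genes passed the test. Of the stem cell markers 2 of 10 rose (Utf1 by 1.91 and Zfp42), of the fibroblast markers 3 of the 7 tested rose, and of the lineage markers 3 of 10 rose and 2 fell, among them Neurod1 (2.11), Krt8 (1.47), Sox1 (-1.52) and Gata4 (-1.72). The part of these shifts in the rise of Setdb1 was not tested.

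Atf7ip (chr6:136506167-136610862, plus strand) encodes the partner that stabilizes SETDB1, and it had the lowest fitted value of any pair. Its counts were 5367 and 4745 in NC, 1288 and 2289 in IOX1, and 1780 and 3694 in Valproate. Both libraries of IOX1 and both of Valproate were below both of NC. The log2 change was -1.55 with IOX1 (SE 0.37, 95% interval -2.36 to -0.75, adjusted p = 0.125 in limma) and -0.98 with Valproate (95% interval -1.78 to -0.17, adjusted p = 0.123), so neither passed the test over all genes. Without Valproate replicate 2, at 3694, the Valproate change passed (adjusted p = 0.00968 in limma), and with p-values adjusted over all 10 comparisons together the IOX1 change passed. The fitted value was below NC with 9 of 10 compounds and 0.06 above it with DZNep. Within replicate number 1 all 10 compounds were below NC, and within number 2 it was 6 of 10. All comparisons share the same 2 NC libraries, of which replicate 1 (5367) was the highest replicate 1 library of the 11 groups. Setdb1 changed by 0.04 with each of IOX1 and Valproate on the log2 scale.

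Suv39h1 (chrX:8061171-8074760, minus strand) and Suv39h2 (chr2:3455815-3475031, minus strand) encode paired enzymes of pericentric heterochromatin. Suv39h1 counts were 832 and 721 in NC and 1395 and 1182 in Bromosporine. The Bromosporine libraries were the highest of all 22, and the next was IOX1 replicate 1 at 973. The rise was 1.66-fold (log2 change 0.73, SE 0.13, 95% interval 0.45 to 1.01, adjusted p = 0.00609 in limma), with 0.74 within replicate number 1 and 0.71 within number 2. Of all tested genes, 5.4% passed with Bromosporine. The pass was lost without Bromosporine replicate 1 (log2 change 0.61) and without NC replicate 2 (0.63), and also in a fit of these 4 libraries alone. Suv39h2 counts were 1117 and 1305 in NC and 1109 and 1234 in Bromosporine, overlapping. Its change there was -0.05, and over all 10 compounds it ran from -0.28 with DZNep to 0.09 with UNC0379 with none past the test (lowest adjusted p 0.175). Chaetocin left Suv39h1 at 804 and 783 (change 0.03) and Suv39h2 at 1145 and 1034 (change -0.15).

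Exons of Suv39h1 overlap on the opposite strand with Gm14820, whose transcripts hold 22.2% of the 31-base stretches of Suv39h1. Gm14820 stood at 401 and 607 in NC and at 199 and 352 in Bromosporine, lower in both libraries, the opposite direction to Suv39h1. The Bromosporine libraries summed to 207785 and 218371 over the stem cell markers, above NC, with 1 of 10 past the test (Utf1, up), and to 653 and 729 over the fibroblast markers, of which 3 of 8 were at 0 in both. Of that fibroblast sum, Col3a1 held 658 in replicate 1 and 601 in replicate 2. Of the 7 fibroblast markers tested 1 fell (Col1a1, -1.74), and of the 10 lineage markers 1 rose (Eomes, 1.33). The part of these shifts in the rise of Suv39h1 was not tested.

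Ehmt2 (chr17:34898469-34914052, plus strand) and Ehmt1 (chr2:24789928-24919614, minus strand) encode G9a and its partner GLP. Ehmt2 counts were 7334 and 6532 in NC and 4984 and 5361 in Valproate. These 2 Valproate libraries were the lowest of all 22. The fall was 0.42 on the log2 scale (change -0.42, SE 0.088, 95% interval -0.61 to -0.23, adjusted p = 0.00843 in limma), a fold of 0.747, with -0.56 within replicate number 1 and -0.28 within number 2. Of all tested genes, 10.3% passed with Valproate. The pass was lost without Valproate replicate 1 (-0.37), without NC replicate 1 (-0.34) and in a fit of these 4 libraries alone. OICR had the highest Ehmt2 counts, 7708 and 7955, above both NC libraries, with a change of 0.18 that did not pass (95% interval -0.01 to 0.37, adjusted p = 0.513). In the Valproate libraries the fibroblast marker sum was 1500 and 1642, with Postn at 658 in replicate 1 and 0 in replicate 2. Of its 7 tested genes 3 were up, among them Thy1 (11.5 ± 0.707 to 330.5 ± 38.9) and Lum, which was listed at 0 in both NC libraries. The lineage marker sum was 1053 and 1086 there, against 1516 and 1524 in NC, with 1 of 10 down (Sox1), and 1 of 10 stem cell markers rose (Utf1). The part of these shifts in the fall of Ehmt2 was not tested.

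Ehmt1 counts were 2348 and 2407 in NC and 1657 and 2020 in DZNep, the lowest group. The groups did not overlap, and the change of -0.38 (95% interval -0.75 to -0.0093) did not pass the test (adjusted p = 0.131 in limma). With Valproate, Ehmt1 stood at 1873 and 2398, overlapping NC, with a change of -0.17 (adjusted p = 0.603). Whether the Ehmt1 and Ehmt2 changes with Valproate differ was not tested.

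Chaf1b (chr16:93883901-93906115, plus strand) and Chaf1a (chr17:56040439-56072289, plus strand) encode the CAF-1 subunits. Chaf1b counts were 3675 and 3575 in NC and 2392 and 2941 in DZNep, below both NC libraries. The fall was 0.45 on the log2 scale (change -0.45, SE 0.12, 95% interval -0.72 to -0.18, adjusted p = 0.0178 in limma), with -0.62 within replicate number 1 and -0.28 within number 2. This pass was lost in more of the alternatives than the other 3. It did not hold without DZNep replicate 1 (-0.30), without NC replicate 1 (-0.43) or without NC replicate 2 (-0.47), nor in a fit of these 4 libraries alone or with p-values adjusted over all 10 comparisons together.

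MS023 held Chaf1b at 2978 and 2385 and IOX1 at 3129 and 2751, both groups below NC as well. Their changes of -0.44 (95% interval -0.71 to -0.18, adjusted p = 0.0932 in limma) and -0.30 (-0.57 to -0.04, adjusted p = 0.328) did not pass. Chaf1a moved little with any compound: its counts were 3206 and 3502 in NC and 3168 and 3985 in DZNep, its changes ran from -0.16 with Garcinol to 0.08 with DZNep, and the lowest adjusted p was 0.776. Transcripts of other genes hold 48.6% of the 31-base stretches of its longest transcript, foremost those of Ubxn6, which overlaps it on the opposite strand and stood at 2023 and 2105 in NC.

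Mphosph8 (chr14:56668248-56697430, plus strand) encodes the HUSH subunit that reads H3K9 methylation. It was the most variable of the 10, with counts from 580 to 3723 (median 1424). NC held the lowest group mean, at 1245 and 726, Chaetocin stood at 3324 and 1640 and IOX1 at 3723 and 1413. The fitted value was above NC with all 10 compounds, from 0.08 with CPTH2 to 1.30 with Chaetocin on the log2 scale, and none passed the test (lowest adjusted p 0.543 in limma). With an SE of 0.79 the intervals were wide. That of Chaetocin ran from -0.40 to 2.99 and that of CPTH2 from -1.61 to 1.78. This SE includes the difference between replicate numbers given below. With the replicate number as a block, Mphosph8 passed with Bromosporine (adjusted p = 0.0328 in limma), IOX1 (0.0236) and MS023 (0.0346). Within replicate number 1 all 10 compounds were above NC, and within number 2 it was 9 of 10, CPTH2 (580) being below. With Valproate, at 2953 and 807, the change was 0.70. Without Valproate replicate 1 the fitted change was -0.24, but that fit sets a number 2 library against NC libraries of both numbers. Within number 2 the Valproate change was 0.15.

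**Figure D2:**
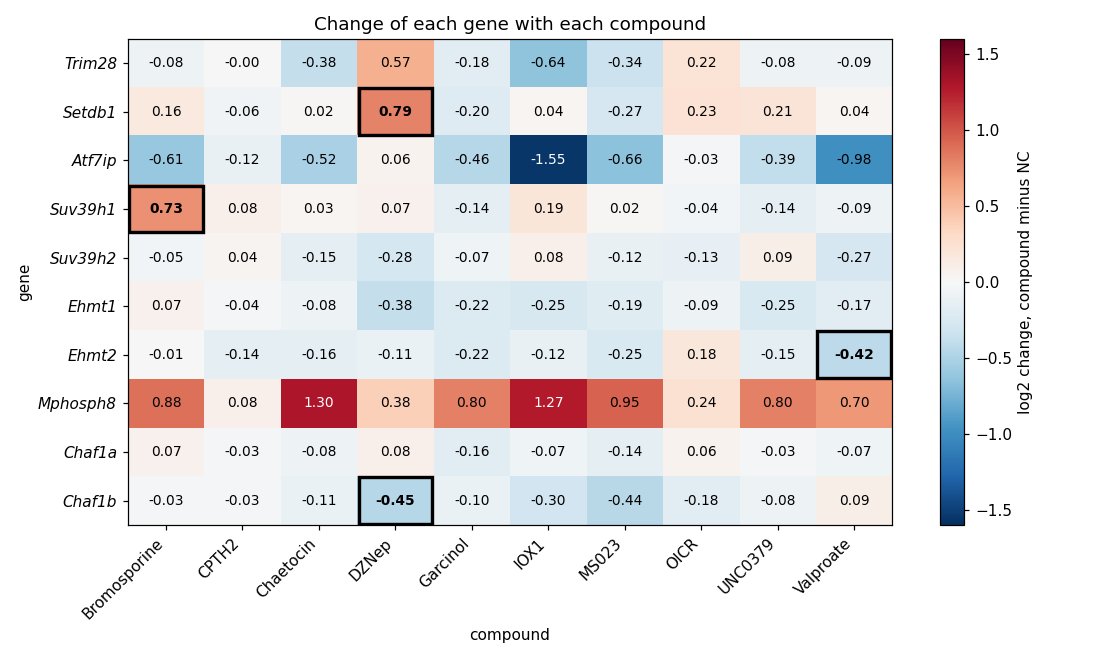
Log2 change of each gene (rows) with each compound (columns), compound minus NC, from -1.55 for Atf7ip with IOX1 to 1.30 for Mphosph8 with Chaetocin. Colour and number give the same value, red above and blue below NC, and the 4 boxed pairs with bold numbers passed the test.

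Counted by compound, 1 of 10 members passed with Bromosporine against 5.4% of all tested genes, 2 of 10 with DZNep against 23.6%, and 1 of 10 with Valproate against 10.3%. With the other 7 compounds, 0 of 10 passed in limma. The share of all tested genes that passed was 0.0174% with Chaetocin, 0.00579% with CPTH2, 0.00579% with Garcinol, 0.127% with IOX1, 2.21% with MS023, 0.637% with OICR and 0% with UNC0379. At an unadjusted p under 0.05 there were 3 of 10 members with IOX1 (12.4% of all tested genes), 2 with MS023 (15%), 1 with Garcinol (3.62%) and 0 with Chaetocin (4.72%), CPTH2 (0.944%), OICR (10.7%) and UNC0379 (6.08%). No member passed with a fold over 2. By that rule, 3.34% of all tested genes were called with Bromosporine, 0.0174% with Chaetocin, 0.00579% with CPTH2, 11.4% with DZNep, 0.00579% with Garcinol, 0.116% with IOX1, 0.973% with MS023, 0.388% with OICR, 0% with UNC0379 and 5.28% with Valproate. The median change of the 10 members ran from -0.22 with MS023 to 0.06 with DZNep, beside medians of all tested genes between -0.04 and 0.01.

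Over all 11 groups, 4 of 10 members varied (moderated F test in limma), against 29.7% of all tested genes. They were Setdb1 (adjusted p = 0.00204), Suv39h1 (0.00726), Ehmt2 (0.0104) and Chaf1b (0.0339), the same 4 that passed against NC, and the F test shares its libraries with those comparisons. Without Bromosporine replicate 1, 2 members varied, Setdb1 and Ehmt2. Atf7ip (0.0673) and Trim28 (0.0982) came next. In the order of group means, the libraries of neighbouring groups were apart in 2 of 10 places for Setdb1 (DZNep over OICR and CPTH2 over Garcinol), 2 for Suv39h1 (Bromosporine over IOX1 and DZNep over Chaetocin), 3 for Ehmt2 (OICR over NC, Bromosporine over DZNep and MS023 over Valproate), 1 for Chaf1b (Valproate over NC) and 1 for Ehmt1 (Bromosporine over NC). For Trim28, Atf7ip, Suv39h2, Mphosph8 and Chaf1a, neighbours overlapped throughout. These places were counted for the 10 members only, so they describe the order, and whether they are unusual among all tested genes was not tested.

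The 2 libraries of a group carried replicate numbers in the labels, and the number itself separated the values of several members. Between libraries numbered 2 and those numbered 1, 6 of 10 members differed, where 52.6% of all tested genes did. The test was a limma fit of 11 group means plus a replicate-number term, at an adjusted p under 0.05. Mphosph8 was lower in number 2 in 11 of 11 groups, with counts of 580 to 1640 (median 1064) against 1245 to 3723 (median 2236), a difference of -1.16 on the log2 scale (SE 0.11, adjusted p = 1.29e-05). The overlapping antisense gene Gm16973 ran from 125 to 264 in number 2 and from 134 to 260 in number 1. Chaf1a was higher in number 2 in 11 of 11 groups by 0.23 (SE 0.039, adjusted p = 0.000374). Atf7ip was higher in 10 of 11 by 0.46 (SE 0.10, adjusted p = 0.00214), Ehmt1 in 10 of 11 by 0.20 (adjusted p = 0.00298) and Suv39h2 in 9 of 11 by 0.14 (adjusted p = 0.0175). Trim28 was higher in 7, lower in 2 and equal in 2, with a difference of 0.24 that was close to the threshold (adjusted p = 0.0486).

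Setdb1 (adjusted p = 0.0674 in limma), Suv39h1 (0.167), Ehmt2 (0.481) and Chaf1b (0.903) did not pass, and these are the members that passed against NC. The 2 results are not independent. A difference between replicate numbers adds to the residual spread of the main fit and makes a pass against NC harder. That residual SD was 0.86 for Mphosph8 and 0.41 for Atf7ip on the log2 scale, and 0.12 for Setdb1. What the replicate number stands for is not given in the labels. For Mphosph8 the difference between numbers exceeded the change with 8 of the 10 compounds. The main fit held no term for the replicate number, and with one 7 (from 4) members varied over the groups. The share of all tested genes that varied in that fit is not given here.

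**Figure D3:**
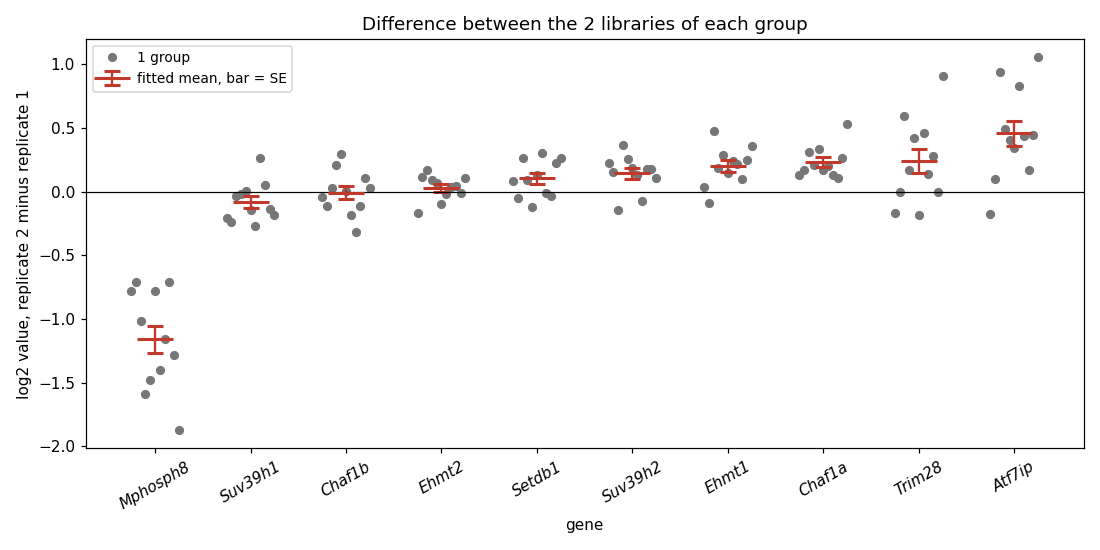
Log2 value of replicate 2 minus replicate 1 (vertical axis) for each of the 10 genes, with a grey point for each of the 11 groups and the fitted mean with its SE in red. All 11 points of Mphosph8 lie below 0, between -1.87 and -0.71, and all 11 of Chaf1a lie above 0, between 0.11 and 0.53.

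For the pair at the head of the pathway, the genes with the most similar pattern over the 11 group means were sought among the 10754 genes that reached 100 in every library. Nearest to Trim28 were Rnf111 (Pearson r = 0.977), Nup35 (0.958) and Map1s (0.952), and nearest to Setdb1 were Ythdf2 (0.965), Tpm3 (0.958) and Rbm15 (0.946). Rbm15 stood at 1153 and 1057 in NC and at 2473 and 1486 in DZNep, and all 3 neighbours of Setdb1 had a DZNep mean above NC. The group means share their libraries and normalization, so these values only describe likeness.

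The other genes of the pathway were taken from 12 further lists. Without the members, 89 genes were listed, 84 were tested and 30 (35.7%) passed with at least 1 compound, against 31.5% of all tested genes. The lists for the SUMO pathway (8 genes), histone H3.3 deposition (7) and other H3K9 methyltransferases (4) had 0 genes past the test in limma with any compound. Among the partners of the HUSH and MORC complexes 1 of 4 passed, Pphln1, which encodes the HUSH subunit periphilin. It rose with Valproate from a mean of 520 to 949 (log2 change 0.87, SE 0.13, adjusted p = 0.0011).

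Heterochromatin protein 1, which binds methylated H3K9, is encoded by 3 genes. Cbx5, for HP1α, fell with Valproate from 19628 ± 2344 to 8657 ± 870 (SD, n = 2; log2 change -1.18, SE 0.17, adjusted p = 0.00101 in limma) and with DZNep to 11991 ± 2970 (change -0.73, adjusted p = 0.00784). Cbx1 and Cbx3, for the other isoforms, did not pass with any compound. Among 7 DNA-binding recruiters, Zfp42 (REX1) and Yy1 rose with DZNep. Zfp42 went from 18616 to 41681 (change 1.15, SE 0.19, adjusted p = 0.000883), and it is also one of the stem cell markers. Cdyl, the 1 gene of 4 G9a and GLP partners to pass, rose with DZNep by 0.41 (adjusted p = 0.0241).

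Among 11 deacetylase and demethylase co-repressors, 3 passed, all with DZNep. Hdac2 rose from 5778 ± 132 to 12261 ± 1890 (log2 change 1.08, SE 0.21, adjusted p = 0.00216 in limma), Smarcad1 rose by 0.96 (adjusted p = 0.0227) and Hdac1 fell by 0.48 (adjusted p = 0.00699). The H3K9 demethylases held 8 genes. With DZNep, Kdm3b, Kdm4a and Kdm4c fell by 0.35, 0.46 and 0.64. Valproate lowered Kdm4b by 0.79 and Kdm4c by 0.57, and Kdm4b rose by 0.53 with Bromosporine. Of the 2 H4K20 methyltransferases, Kmt5b rose with MS023 by 0.80 and fell with Valproate by 0.51, and Kmt5c fell with Valproate by 0.33.

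Of 6 genes for the placing or maintenance of DNA methylation, 2 passed. Dnmt3l, a cofactor of the de novo methyltransferases, was low in NC (9 and 40) and stood at 1487 and 612 in DZNep. It rose there by 5.56 on the log2 scale (SE 0.92, adjusted p = 0.000797 in limma), and it also rose with Valproate (4.59, adjusted p = 0.0065) and Bromosporine (3.47, adjusted p = 0.0443). Uhrf1, which brings DNMT1 to hemimethylated DNA, fell with Valproate by 0.49 (adjusted p = 0.00544).

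A further list held genes known to come up when these factors are lost, namely retrovirus-driven genes of the 2-cell stage and germline genes. The retroviral repeats themselves were not analysed here. Of 25 listed genes 20 were tested. With DZNep, where 1855 of all 17275 tested genes rose and 2214 fell, 7 rose and 0 fell: Tex101, Mael, Asz1, Wfdc15a, Magea5, Magea8 and Slc25a31. Magea8 went from 33.0 ± 11.3 to 106 ± 12.7 (log2 change 1.69, SE 0.31, adjusted p = 0.00176 in limma). With Valproate, where 887 of all tested genes rose and 894 fell, 5 rose (Asz1, Wfdc15a, Magea5, Magea8 and Slc25a31) and 1 fell (Ddx4). Magea5 went there from 44.0 ± 4.24 to 121.5 ± 9.19 (change 1.45, SE 0.27, adjusted p = 0.0042). With MS023 (149 of all tested genes up and 232 down) 1 rose, Ddx4, by 0.88 (adjusted p = 0.0355).

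With Bromosporine 0 genes of this list rose and 7 fell in limma, where 278 of all 17275 tested genes rose and 654 fell. Sohlh2, a germ cell transcription factor, went from 2760 ± 386 to 396 ± 43.8 (log2 change -2.80, SE 0.37, adjusted p = 0.00114), Taf7l from 226.5 to 88 (-1.36, adjusted p = 0.0417) and Ddx4 fell by 0.78. The other 4, Zscan4c, Zscan4d, Usp17la and Usp17lb, were listed at 0 in both Bromosporine libraries, against 64 and 66, 40 and 47, 59 and 48, and 14 and 16 in NC. These belong to families of near-identical copies, so their counts are uncertain, and no fold is given against 0. With OICR (39 of all tested genes up and 71 down), Zscan4d was also listed at 0 in both libraries. The list's median change was -1.29 with Bromosporine, 0.44 with DZNep and 1.04 with Valproate, beside 0.01, -0.04 and -0.02 for all tested genes. These counts depend on single libraries: with 1 library left out in turn they ran from 2 to 3 with Bromosporine, from 3 (without NC replicate 1) to 8 with DZNep, and from 1 (without Valproate replicate 1 or NC replicate 1) to 4 with Valproate.

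**Figure D4:**
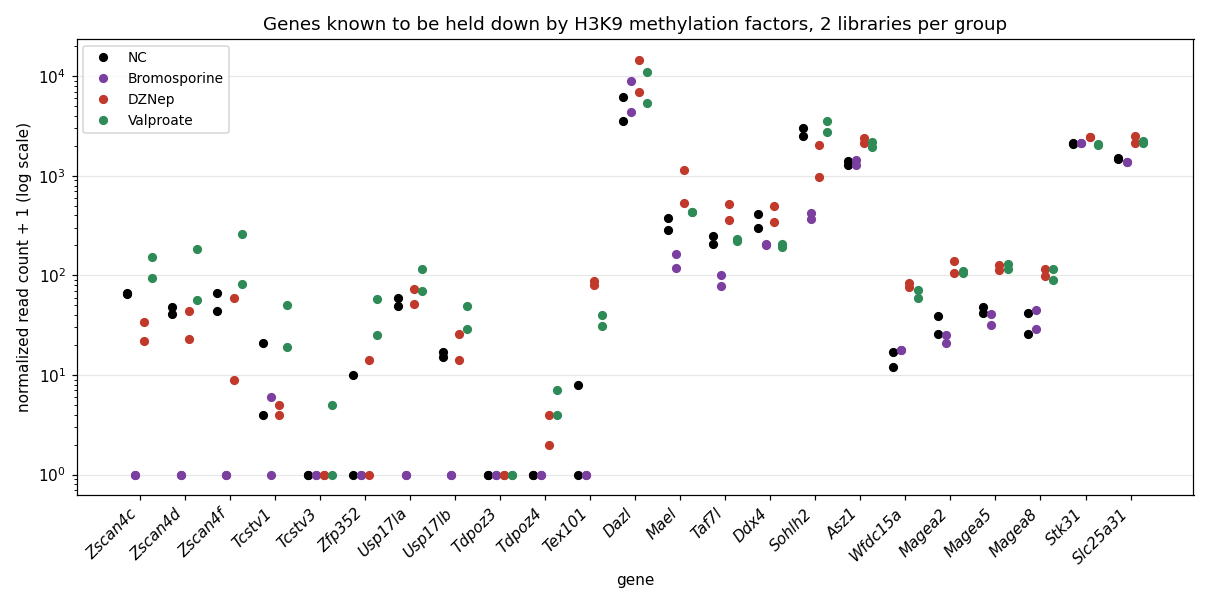
Normalized read count plus 1 (log axis) of the 23 listed genes found in the table, each in the 2 libraries of NC, Bromosporine, DZNep and Valproate. Zscan4c, Zscan4d, Usp17la and Usp17lb are at 0 in both Bromosporine libraries, plotted at 1, and Magea5 and Magea8 lie above NC in both DZNep and both Valproate libraries.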

How the data were processed

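Poly(A)-selected RNA came from 22 libraries of the mouse ESC line E14, 2 for each of 10 compounds and for NC, with groups and replicate numbers taken from the sample titles and treatment labels. The deposited values are scores, read counts that the authors normalized and rounded to whole numbers. The submitters' processing notes name bcl2fastq, Bowtie2 2.2.5, RSEM and mm10. According to the study's methods, which do not mention the compounds, RSEM or TEtranscripts counts were normalized with EDASeq at its full (quantile) setting, and which route gave the table is not given in the sources used here. Quantile normalization hides depth and would remove a shift shared by most genes. A second table held the authors' group means, which differed from the means of the libraries by 0, and was set aside. Each column name equalled a sample title.

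Values were analysed as log2(value + 1) with limma 3.58.1 in R 4.3.3. Genes with at least 10 in at least 2 libraries were kept. A model of 11 group means (11 residual degrees of freedom) was fitted to all libraries, variances were moderated with a trend (eBayes), and each compound was compared with NC, two-sided, with Benjamini-Hochberg adjustment over all tested genes within a comparison. A gene passed at an adjusted p under 0.05 and was called with a fold over 2 as well. Replicate numbers were compared by a limma fit of 11 group means plus a replicate-number term to all 22 libraries. The fit was tested on simulated data that held no difference between replicate numbers, unlike these data.

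The members and gene lists were chosen with earlier results of these data known. Named genes were all 10 members and, from each further list, up to 2 called genes in each direction with a larger group mean of at least 100, plus the 3 genes nearest to Trim28 and to Setdb1 by Pearson's r. Other passing pathway genes are given to complete the counts and were chosen after their values were seen. Tdpoz1 and Tdpoz2 of the list of derepressed genes were not analysed here. Positions, transcript lengths and shared 31-base stretches came from GENCODE M21 (GRCm38, the assembly mm10), and promoters from RefSeq (GRCm38.p6). Python 3.11.15, numpy 2.4.6, pandas 2.3.3 and matplotlib 3.10.9 were used. The alternatives tried were no filter on low values, a pseudocount of 10, a fit restricted to the 4 libraries compared, the replicate number as a block, the mean of the other 10 groups as reference, median-ratio rescaling, adjustment over all 10 comparisons, each replicate left out, and the shortest coding transcript for levels per kilobase. The counts of the list of derepressed genes under these alternatives were added after seeing the data.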

Additional observations from a re-analysis of the deposited data

How the results depend on the processing

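The number of members that passed moved as follows. With the replicate number as a block it was 2 (from 1) with Bromosporine, 4 (from 2) with DZNep, 2 (from 0) with IOX1, 2 (from 0) with MS023 and 2 (from 1) with Valproate. Over the groups, 7 (from 4) members varied with the block. The share of all tested genes under this fit is not given here. Over the alternatives, the number of all 17275 tested genes that passed reached 7432 with DZNep, as given below. These counts are thus not read as a result about the members. Mphosph8 passed with Bromosporine, IOX1 and MS023, and Atf7ip passed with IOX1 and Valproate. The further members that passed with DZNep and MS023 are not named here, and their changes lay within 0.5 in the main fit. Counts of derepressed genes, here and below, take the genes of that list that passed in either direction. With Bromosporine all 7 in the main fit fell. The block took this count with DZNep from 7 to 12. The replicate numbers carry a shared difference, since 52.6% of all tested genes differed between them. The correlations of the paired differences between groups ran from 0.053 to 0.298 (median 0.196, 51 of 55 over 0.1). What the numbers stand for is not given, and each comparison has 2 pairs. In fits restricted to the 4 libraries compared, the count was 0 with Bromosporine, 0 with DZNep and 0 with Valproate, and for the derepressed genes 0 with DZNep and 0 with Valproate, where fewer libraries give fewer degrees of freedom. Adjusted over all 10 comparisons, 1 member passed with DZNep and 1 with IOX1 (Atf7ip), and 4 genes of the derepressed list passed, in either direction, with Bromosporine. Against the mean of the other 10 groups it was 2 members with MS023 and 1 with OICR, and 12 derepressed genes with DZNep and 11 with Valproate. Trim28 also passed with DZNep against that mean. The cause was not tested except where stated.

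With 1 library left out, members passing ran from 0 to 1 with Bromosporine, from 1 to 2 with DZNep, from 0 to 2 with Valproate and from 2 to 5 over the groups. The derepressed genes ran from 2 to 3, from 3 to 8 and from 1 to 4 with Bromosporine, DZNep and Valproate. Mphosph8 with Valproate ran from -0.24, without Valproate replicate 1, to 1.63. Such fits leave the replicate numbers unbalanced, and within number 2 this change was 0.15. The refits counted next took only pairs that passed in the main fit or changed by at least 0.5 on the log2 scale. New passes of other pairs, such as some with the block, are outside that count. Of 198 refits of 18 pairs, 177 kept direction and side of the threshold, 12 fell short of it, 8 newly passed and 1 changed sign. Over the alternatives the number of all tested genes that passed ran from 97 to 7432 with DZNep (4069), from 75 to 4609 with Valproate (1781), from 147 to 2854 with Bromosporine (932), from 31 to 1766 with MS023 (381), from 16 to 706 with OICR (110), from 9 to 922 with IOX1 (22), from 2 to 63 with Chaetocin (3), from 1 to 29 with CPTH2 (1), from 1 to 26 with Garcinol (1) and from 0 to 58 with UNC0379 (0). Rescaling moved the median of all genes by at most 0.036. Depth per library is unknown, so no limit from depth could be set.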
